A study of Mus musculus with 6 samples.

Results

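The 9 genes described here (Hlf, Meis1, Mecom, Hoxa9, Angpt1, Ctla2a, Procr, Mycn and Txnip) are associated with haematopoietic stem cells. They were taken by symbol from the 23538 genes of the deposited tables. Their RNA was measured in bone marrow cells of wild type mice and of mice of genotype Mof -/+, in which 1 copy of Mof (gene symbol Kat8, a histone H4 lysine 16 acetyltransferase) is lost. Each library held 15 cells sorted from 1 of 6 populations and was made by CEL-Seq2, a method that tags the 3′ ends of transcripts. There were 3 libraries for each of the 12 groups, 36 in all. The sources used here give no strain, no age and no account of how the Mof allele was made. They do not say if the 3 libraries of a group hold cells of different animals, so p-values measure the spread between these libraries only.

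All gates were set on lineage marker and surface protein staining. HSC (haematopoietic stem cells) were LSK cells, meaning negative for lineage markers and positive for Sca-1 and cKit, without CD34, Flt3 or CD48 and with CD150. The multipotent progenitors were LSK cells with CD34 and CD48: MPP2 carried CD150 and no Flt3, MPP3 carried neither, and MPP4 carried Flt3 and no CD150. The committed progenitors were cKit-positive cells without Sca-1 or IL7r: CMP (common myeloid progenitors) carried CD34 and low CD16/32, and MEP (megakaryocyte-erythroid progenitors) carried neither. Libraries were sequenced in 6 pools, 1 of HSC, 1 of MPP2 to MPP4 and 1 of CMP and MEP for each genotype. Genotype and pool therefore cannot be told apart, nor can HSC, the MPPs and the CMP-MEP pair be told apart from their pools.

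Haematopoietic stem cells stay mostly quiescent in the bone marrow niche, and their self-renewal depends on a small set of transcription factors and on signals from their surroundings. Hlf is a PAR bZIP transcription factor, Meis1 a TALE homeobox factor that binds DNA together with Hox and Pbx proteins, Hoxa9 one of those Hox partners, Mecom (Evi1) a zinc finger factor and Mycn a Myc family factor. Angpt1 encodes a ligand of the receptor tyrosine kinase Tek (Tie2), and Procr encodes the endothelial protein C receptor, a surface marker of stem cells. Ctla2a encodes an inhibitor of cysteine cathepsins, and Txnip a thioredoxin-binding arrestin that also restrains glucose uptake.

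Ctla2a lies on chromosome 13 (GRCm38, positions 60934155 to 60936625, minus strand), beside its near copy Ctla2b (60895350 to 60897447). GENCODE transcripts of the pair share an identical run of up to 91 bases, and 2 annotated genes, Gm49391 and Gm49393, overlap both. Reads from the pair could be split between them, so Ctla2a values are uncertain to that extent. In the last 400 bases of the transcripts, where CEL-Seq2 reads fall, the longest identical run was 8 bases. The 250 bases before the RefSeq start of each gene (GRCm38.p6, chr13:60936626-60936875 and chr13:60897448-60897697, minus strand) are shown because both genes were most abundant in the same group, as described further on. Of 228 aligned bases, 209 were identical. Capitals mark the 41 bases of each that differ from the other gene or have no counterpart in its window.
Ctla2a: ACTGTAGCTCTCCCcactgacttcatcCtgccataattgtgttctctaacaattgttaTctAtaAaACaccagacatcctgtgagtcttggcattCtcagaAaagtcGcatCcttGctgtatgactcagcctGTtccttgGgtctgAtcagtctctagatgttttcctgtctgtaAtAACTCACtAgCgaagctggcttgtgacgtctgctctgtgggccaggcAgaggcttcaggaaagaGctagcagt
Ctla2b: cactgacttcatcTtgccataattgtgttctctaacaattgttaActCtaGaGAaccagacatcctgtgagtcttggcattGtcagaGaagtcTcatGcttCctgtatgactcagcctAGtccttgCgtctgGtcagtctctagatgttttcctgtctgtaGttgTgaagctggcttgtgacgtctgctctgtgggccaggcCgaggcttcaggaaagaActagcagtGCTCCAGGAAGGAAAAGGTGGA

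Of the 9 genes, 8 had an entry in the RefSeq promoter table, Angpt1 being the exception. The 250 bases before each start were searched on both strands for short motifs, and so were the 32851 windows of this length of all genes. The PAR bZIP letters TTACGTAA were found in 0.113% of all windows, and the variant TTATGTAA in 0.819%. The Meis letters TGACAG were found in 15.9% of all windows and the Myc E-box CACGTG in 6.02%. For the Gata letters GATAAG the share was 6.55%, and for the Ets letters CCGGAAG it was 6.91%. Among the stem cell genes, there were 2 matches: the Ets letters in Meis1, on the reverse strand with the first base at -12, and the Meis letters in Mecom, on the reverse strand at -86 of its downstream start. Hlf, one of the 2 members that differed between populations in the test given further on, held none of these letters. Its window (GRCm38.p6, chr11:90390918-90391167, minus strand) and that of Meis1 (chr11:19018970-19019219, minus strand, Ets letters in capitals as their reverse complement) are shown for that contrast.
Hlf: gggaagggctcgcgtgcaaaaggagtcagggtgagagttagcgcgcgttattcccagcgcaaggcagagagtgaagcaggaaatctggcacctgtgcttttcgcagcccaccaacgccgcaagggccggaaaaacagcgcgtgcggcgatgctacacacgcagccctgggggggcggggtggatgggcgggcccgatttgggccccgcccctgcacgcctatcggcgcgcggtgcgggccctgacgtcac
Meis1: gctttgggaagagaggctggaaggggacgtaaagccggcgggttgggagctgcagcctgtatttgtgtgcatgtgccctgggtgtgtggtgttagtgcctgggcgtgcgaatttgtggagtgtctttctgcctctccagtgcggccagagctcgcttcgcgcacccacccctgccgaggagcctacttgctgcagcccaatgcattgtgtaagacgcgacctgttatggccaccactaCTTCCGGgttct

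Hlf spans positions 90336536 to 90390895 of chromosome 11 and overlaps no other annotated gene, as do Procr (chromosome 2, 155751117 to 155755471) and Mycn (chromosome 12, 12936093 to 12941914). The other 6 genes overlap 1 or more annotated genes. Angpt1 (chromosome 15, 42424723 to 42676977), Meis1 (chromosome 11, 18879817 to 19018985), Mecom (chromosome 3, 29951296 to 30548008) and Txnip (chromosome 3, 96557957 to 96561883) have antisense partners. The sources used here do not state whether counting used the strand, so reads of these partners may be included. Hoxa9 (chromosome 6, 52223100 to 52231089) overlaps a microRNA gene on its own strand.

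Libraries held between 1577 and 123765 counts, with a median of 41227. Of the libraries, 6 were under 13000 counts: all 3 of wild-type MPP2 (10331 to 12339), 2 of wild-type MPP3 (7304 and 2764) and 1 of heterozygous HSC (1577). Kat8 gave 12 counts over the 18 wild-type libraries (18.3 CPM, counts scaled to a library total of 1000000) and 11 over the 18 heterozygous ones (9.86 CPM), with at most 4 in a library, too few to check the genotype of a single library. Kit, which encodes the cKit protein of every gate, gave at most 1 count in 7 libraries: wild-type HSC replicate 3, heterozygous HSC replicate 2, wild-type MPP2 replicates 1 and 3, wild-type MPP3 replicates 1 and 2, and wild-type MPP4 replicate 3. It lay between 122 and 885 CPM in the other 29. Of the 7, all but wild-type HSC replicate 3 and wild-type MPP4 replicate 3 were under 13000 counts. In those shallow libraries 1 count equals 88.5 to 634 CPM.

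The library labelled wild-type HSC replicate 3 went against its label. It held 30569 counts, with 1 of Kit, and 0 of Hlf, Angpt1, Meis1, Mecom, Procr and Mycn. Its 6 B lineage markers (Vpreb1, Vpreb3, Igll1, Cd79a, Cd79b and Ebf1) summed to 4645 CPM, the most of any library, against 103 and 684 in replicates 1 and 2. Heterozygous HSC replicate 2 was the shallowest library, in which 1 count equals 634 CPM. Results on HSC are therefore given with all 36 libraries and with 29, after setting aside both of these and the other 5 shallow libraries. Wild-type MPP2 then has no library, so MPP2 rests on heterozygous ones. This second set was chosen after the data were seen. Setting aside a library with no count of Hlf, Angpt1, Meis1 or Mycn raises their level in HSC by construction, so its HSC values are no independent support. Another set, also chosen after the data were seen and called the Kit set here, leaves out the 7 libraries with at most 1 count of Kit. That rule uses none of the 9 genes, but it sets aside the same HSC libraries, which held no count of Hlf. HSC values of the Kit set are therefore no independent support either.

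The summed level of the 9 genes is set here beside that of the B lineage markers. It was 3816 and 2707 CPM in wild-type HSC replicates 1 and 2 and 196 CPM in replicate 3. In heterozygous HSC it was 2352, 3805 and 3680 CPM, the middle value being that of replicate 2, where 1 count equals 634 CPM. All 6 MPP4 libraries lay between 315 and 966 CPM, with B lineage sums of 2794 to 3823 CPM. CMP libraries lay between 978 and 1590 CPM for the 9 genes with B lineage sums of 0 to 39.6 CPM. Other markers also varied. The 8 neutrophil markers summed to 4703 to 19715 CPM in wild-type MPP3 and 69.9 to 1401 CPM in heterozygous MPP3, and reached 32982 CPM in wild-type MPP4 replicate 3. Of the 6 endothelial and stromal genes, Cdh5 and Cxcl12 were at 0 in all 36 libraries. Pecam1 was found in every group and Lepr in every group but wild-type MPP2. Kdr was found only in HSC, of both genotypes, and Col1a1 only in heterozygous MPP3. The list summed to at most 201 CPM outside libraries under 13000 counts. What these other cells contributed to the results below was not tested.

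**Figure D1:**
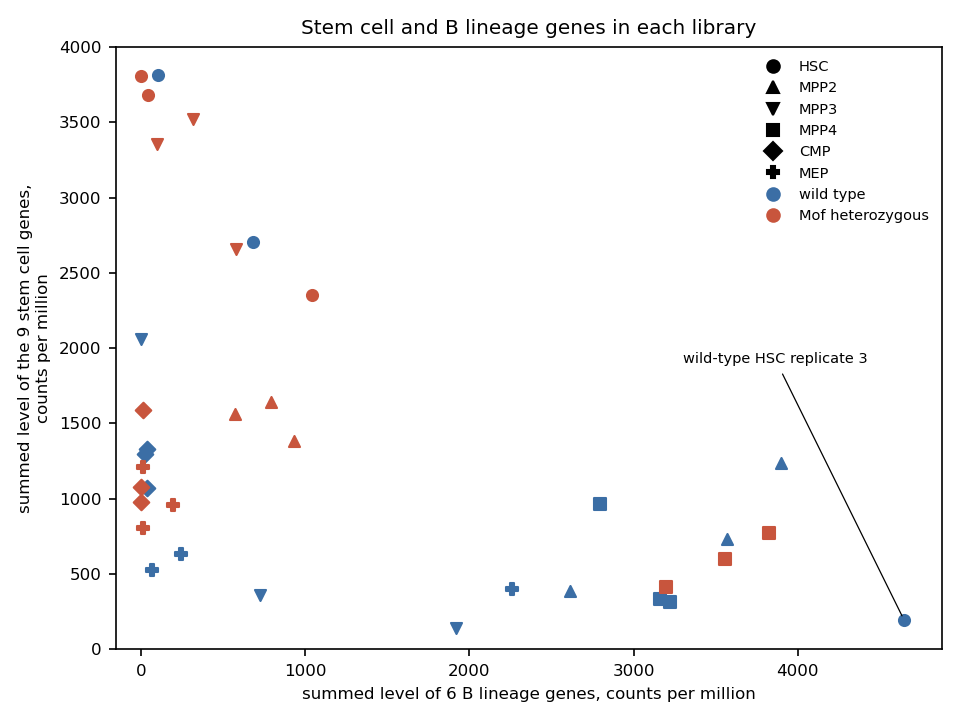
Summed level of the 9 stem cell genes (vertical axis, CPM) against the summed level of 6 B lineage genes (horizontal axis, CPM). Each point is 1 of 36 libraries, with shape for population and colour for genotype. The library labelled wild-type HSC replicate 3 lies at 4645 CPM of B lineage genes and 196 CPM of stem cell genes, far from the other 5 HSC libraries. Of those 5, heterozygous HSC replicate 2 held only 1577 counts.

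Hlf was high in HSC and in heterozygous MPP3 and low elsewhere. In wild-type HSC it was at 997, 484 and 0 CPM, and in heterozygous HSC at 578, 0 and 699 CPM, the 0 values being the 2 libraries in doubt. Heterozygous MPP3 libraries held 460, 575 and 419 CPM. All 4 HSC libraries outside the 2 in doubt were above every library outside HSC and heterozygous MPP3, where the highest was 192 CPM, in wild-type MPP3 replicate 3. The other 2 wild-type MPP3 libraries were at 0. MPP2 ranged from 0 to 104 CPM, MPP4 from 0 to 55.4 CPM, CMP from 11.2 to 48.5 CPM and MEP from 0 to 93.2 CPM, and these ranges overlapped.

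Angpt1 was found in HSC, MPP2, MPP3, CMP and MEP and was low in MPP4. Wild-type HSC held 653, 855 and 0 CPM, and heterozygous HSC 424, 634 and 466 CPM. Heterozygous MPP3 held 443, 626 and 489 CPM, within the range of the HSC libraries, and wild-type MPP3 0, 362 and 432 CPM. Heterozygous MPP2 held 201, 416 and 338 CPM, and wild-type MPP2, in 3 shallow libraries, 0, 81.0 and 266 CPM. CMP libraries ranged from 226 to 487 CPM in both genotypes together, with means of 316 ± 123 (SD, n = 3) in wild type and 327 ± 140 (SD, n = 3) in heterozygous cells. MPP4 was at 78.3, 26.2 and 0 CPM in wild type and 75.9, 53.8 and 0 CPM in heterozygous libraries, below all 6 CMP libraries. MEP was at 57.1 to 137 CPM in wild type and 160 to 285 CPM in heterozygous libraries, which did not overlap. The wild-type MEP range overlapped that of MPP4, and the heterozygous one that of CMP.

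Ctla2a reached its highest mean in heterozygous MPP3, at 919, 1489 and 1956 CPM. Wild-type HSC held 791, 541 and 65.4 CPM. Heterozygous HSC held 347, 1902 and 932 CPM, where the middle value rests on 3 counts. Wild-type MPP3 was at 0, 0 and 768 CPM, its 2 shallow libraries having no count, and its replicate 3 lay near the HSC libraries. CMP was even across libraries, at 290 to 395 CPM in wild type and 186 to 292 CPM in heterozygous cells. MEP was at 28.6 to 106 CPM in wild type and 68.4 to 226 CPM in heterozygous cells, and MPP4 at 48.8 to 261 CPM over both.

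Meis1 varied less. It was at 241, 199 and 0 CPM in wild-type HSC, and at 96.4, 634 and 373 CPM in heterozygous HSC, 634 CPM being 1 count. Heterozygous MPP3 held 119, 275 and 265 CPM. CMP was close between genotypes, with 142 ± 22.1 CPM (SD, n = 3) in wild type and 159 ± 46.4 CPM (SD, n = 3) in heterozygous cells. MEP was lower, with 42.8 ± 24.0 and 81.1 ± 37.2 CPM (SD, n = 3 each), and wild-type CMP and MEP did not overlap.

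**Figure D2:**
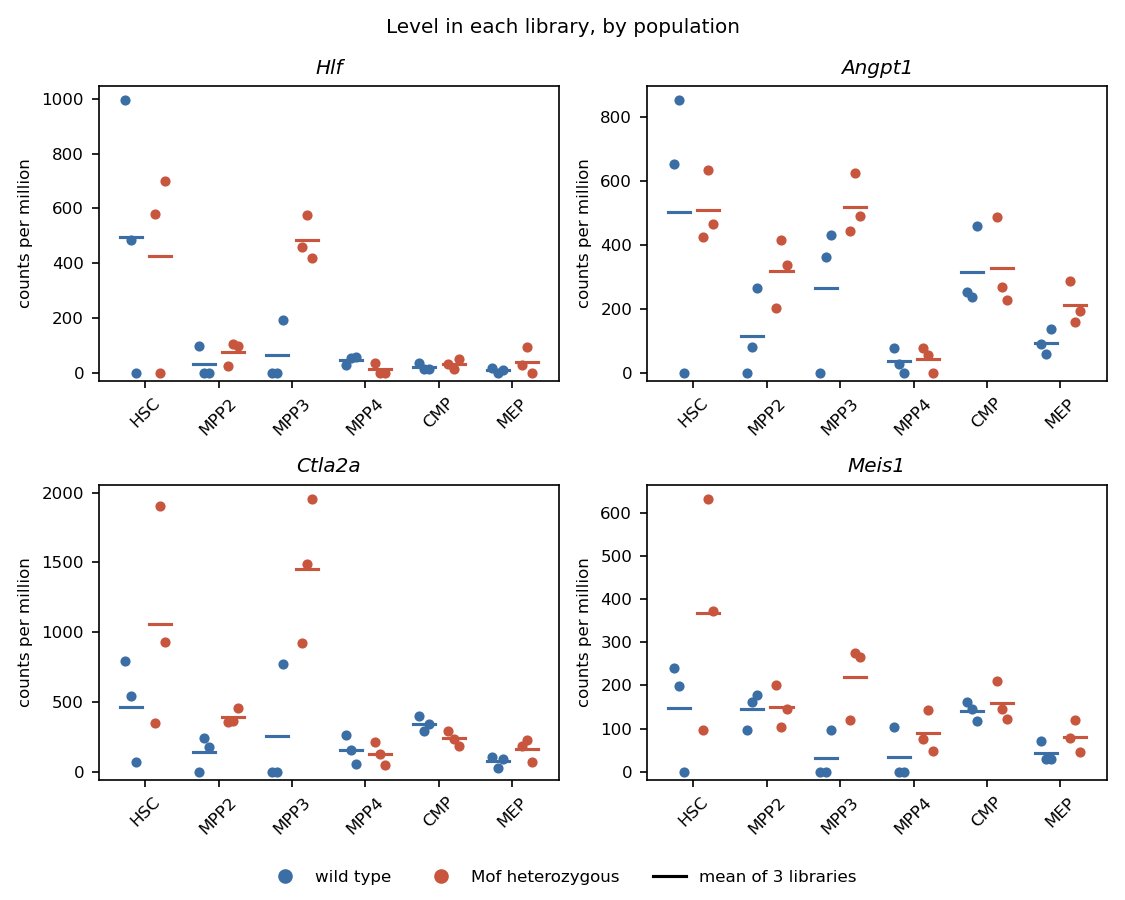
Level of Hlf, Angpt1, Ctla2a and Meis1 in CPM (vertical axes) in each of the 36 libraries, by population (horizontal axes) and genotype (colour). Lines are means of 3 libraries. For Hlf, heterozygous MPP3 (419 to 575 CPM) sits with HSC, and no other library outside HSC exceeds 192 CPM.

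Mecom and Procr were rare transcripts, with 25 and 22 counts in all 36 libraries, and were below the minimum level of the tests. Of these, 12 Mecom counts and 10 Procr counts fell in HSC, which held 169665 of 1771518 counts. The ratio of pooled counts per total, HSC over the other 5 populations, was 8.72 for Mecom (95% interval 3.63 to 20.7) and 7.87 for Procr (3.04 to 19.9). These intervals come from an exact binomial calculation and, here and below, cover counting error only and not the spread between libraries. Both genes were found in wild-type HSC replicates 1 and 2 and heterozygous HSC replicates 1 and 3, and in neither of the other 2 HSC libraries. MPP4 had 0 counts of either gene, which allows at most 9.68 CPM. In heterozygous MPP3 there were 5 Mecom and 6 Procr counts, at 23.8 and 28.5 CPM pooled, and Procr was found in all 3 libraries there.

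Mycn was at 206, 85.5 and 0 CPM in wild-type HSC and at 174, 0 and 326 CPM in heterozygous HSC. Unlike Hlf, it was low in heterozygous MPP3, at 17.0, 0 and 14.0 CPM. CMP ranged from 18.0 to 146 CPM, and wild-type MPP4 replicate 1 held 209 CPM where replicates 2 and 3 had 0. Pooled over genotypes, HSC held 3.58 times the level of the other 5 populations (95% interval 2.16 to 5.74).

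Hoxa9 did not follow this pattern, with 9 of its 105 counts in HSC, 8 of them in heterozygous replicate 1. Wild-type HSC held 0, 28.5 and 0 CPM. Its highest group mean was in wild-type CMP, at 84.5 ± 67.0 CPM (SD, n = 3), where the libraries held 162, 52.8 and 39.3 CPM. Heterozygous MPP4 was at 84.3, 162 and 0 CPM, so within 1 group the libraries spanned the whole range of the gene. The HSC level over the other 5 populations was 0.885 (95% interval 0.393 to 1.75).

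Txnip was present in 35 of 36 libraries. It was even in wild-type CMP and MEP, at 275 ± 12.9 and 237 ± 9.17 CPM (SD, n = 3 each). Wild-type HSC held 722, 399 and 131 CPM, and heterozygous HSC 443, 634 and 652 CPM. Wild-type MPP4 was at 131, 52.4 and 222 CPM and heterozygous MPP4 at 67.5, 287 and 317 CPM, the lowest means in each genotype.

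**Figure D3:**
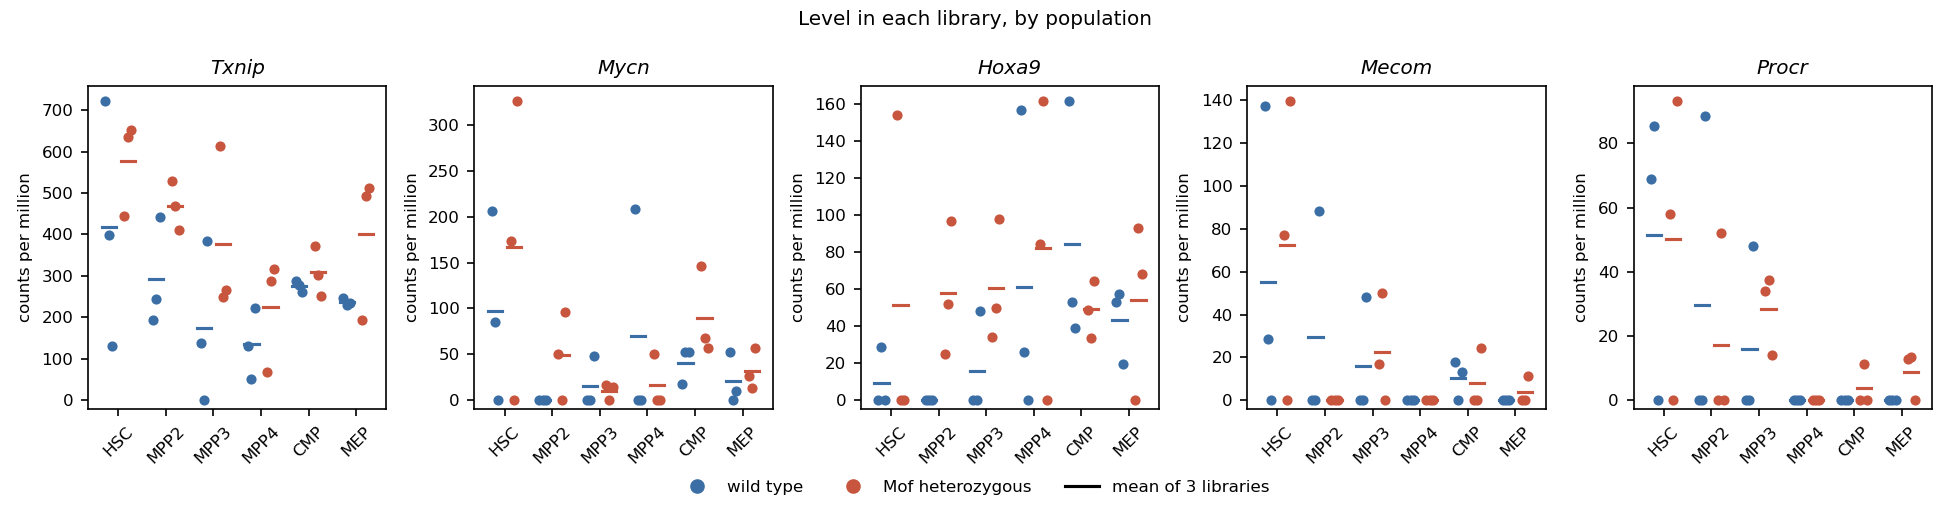
Level of Txnip, Mycn, Hoxa9, Mecom and Procr in CPM (vertical axes) in each of the 36 libraries, by population (horizontal axes) and genotype (colour), with lines for means of 3 libraries. Mecom and Procr have no count in any MPP4 library, and Txnip is found in 35 of 36 libraries.

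Groups next to each other in the order of the 12 group means mostly overlapped. For 8 of the 9 genes, each group's range overlapped that of the next group in the order. The exception was Txnip, for which wild-type CMP (262 to 287 CPM) and wild-type MEP (229 to 247 CPM) stood next to each other without overlap. For Mecom and Procr some of these neighbours were both at 0. The share of all genes with such overlap is not given here, so this only describes the libraries.

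Differences were tested with limma on log2(count scaled to a total of 41227 + 1), fitted to 36 libraries and the 6501 genes with a mean scaled value of at least 1. Differences below are on that log2 scale, which understates changes of low genes. Genes passed at a Benjamini-Hochberg adjusted p of 0.05. Shares of all genes are given at that threshold only, so counts of genes with an unadjusted p under 0.05 are descriptive. Of the 9 genes, 7 were above the minimum level, a share that says nothing of how they vary. A test of any difference between the 6 populations passed for Hlf (adjusted p = 0.0255) and Angpt1 (adjusted p = 0.0242), 2 of 7, where 4.14% of all genes passed. For Ctla2a the adjusted p was 0.123, and for Meis1, Mycn, Txnip and Hoxa9 it was 0.193, 0.221, 0.330 and 0.558. With 29 libraries, 6 of 7 passed, all but Hoxa9, where 12.7% of all genes passed. With the Kit set the same 6 passed, where 22.5% of all genes did. With wild-type libraries alone, none of the 7 passed and 0 had an unadjusted p under 0.05. With heterozygous libraries alone 3 passed, Hlf (adjusted p = 0.00956), Angpt1 (adjusted p = 0.0173) and Ctla2a (adjusted p = 0.00758), where 2.14% of all genes did. Leaving out any of the 4 well-covered HSC libraries ended the call of Hlf, and leaving out wild-type MPP4 replicate 2 or 3 or heterozygous MPP4 replicate 3 ended that of Angpt1.

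HSC were compared with the mean of the other 5 populations, both genotypes weighted equally. Hlf was higher in HSC by 1.87 (SE 0.51) with all libraries, which missed the threshold (limma adjusted p = 0.0685). None of the 7 genes passed, where 0.508% of all genes did, and 4 of 7 had an unadjusted p under 0.05. The median difference of the 7 was 1.06, against -0.22 for all genes tested. Ctla2a differed by 1.40 (SE 0.49), Mycn by 1.12 (SE 0.44), Angpt1 by 1.06 (SE 0.50), Meis1 and Txnip by 0.79 each (SE 0.43 and 0.41), and Hoxa9 by -0.67 (SE 0.41).

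Whether Hlf passed depended on single libraries. Without wild-type HSC replicate 3, the library that went against its label, the difference was 2.68 (SE 0.51, limma adjusted p = 0.00109). Without heterozygous HSC replicate 2 it was 2.66 (SE 0.51, limma adjusted p = 0.00551). Leaving out wild-type MPP2 replicate 1 (1.94, adjusted p = 0.0485) or wild-type MPP3 replicate 3 (1.97, adjusted p = 0.0406) also brought it past the limma threshold. With 29 libraries Hlf rose by 3.15 (SE 0.36, limma adjusted p = 1.6e-07), Mycn by 1.91 (SE 0.45, limma adjusted p = 0.0166) and Angpt1 by 1.48 (SE 0.32, limma adjusted p = 0.00687), 3 of 7, where 1.81% of all genes passed. Without libraries under 13000 counts, Hlf alone passed (2.34, SE 0.46, limma adjusted p = 0.00343), where 1.38% of all genes did. That set keeps wild-type HSC replicate 3 but leaves out heterozygous HSC replicate 2, which held no count of Hlf. Its Hlf value is therefore no independent support either. With the Kit set 5 of 7 rose, where 3.64% of all genes passed. There Hlf rose by 3.36 (SE 0.35, limma adjusted p = 1.02e-08), Mycn by 1.98, Angpt1 by 1.59, Ctla2a by 1.09 and Txnip by 0.94. edgeR on the recovered counts of all 36 libraries called Hlf (3.56, adjusted p = 8.38e-07) and Angpt1 (1.46, adjusted p = 0.0229), where 2.51% of the 1633 genes it tested passed. In pooled counts, Hlf was 5.84 times as abundant in HSC as in the other 5 populations (95% interval 4.45 to 7.64). That ratio was 18.2 in wild type (9.96 to 35.0) and 4.73 in heterozygous cells (3.30 to 6.69), the latter group including the high heterozygous MPP3 libraries.

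MPP4 were compared with MPP2 and MPP3 of the same pool. The MPP4 difference of Angpt1 was -2.07 (SE 0.56) with all libraries, which missed the threshold (limma adjusted p = 0.0900). None of the 7 passed, where 0.261% of all genes did, and Angpt1 alone had an unadjusted p under 0.05. Leaving out wild-type HSC replicate 3, wild-type MPP2 replicate 1 or wild-type MPP3 replicate 1 brought Angpt1 past the limma threshold, with differences of -2.07, -2.31 and -2.42. The median difference of the 7 was -0.84, against 0.17 for all genes. edgeR called Angpt1 (-2.37, adjusted p = 0.0273), where 4.35% of its genes passed. With 29 libraries, 5 of 7 fell in MPP4, where 4.36% of all genes passed. Angpt1 fell by 2.91 (SE 0.34), Ctla2a fell by 2.16 (SE 0.33) and Hlf fell by 1.89 (SE 0.38), and the differences of Txnip and Meis1 were -1.32 each (SE 0.32 and 0.38). In that set only wild-type MPP3 replicate 3 stands for wild-type MPP2 and MPP3. The genotypes agreed in direction for Angpt1 but not for Ctla2a and Hlf. With heterozygous libraries alone Angpt1 (-2.87) and Ctla2a (-2.48) passed, where 0.515% of all genes did, and the difference of Hlf was -2.73 (limma adjusted p = 0.0503). With wild-type libraries alone none passed, and the differences were -1.27 for Angpt1, 0.80 for Ctla2a and 0.56 for Hlf. Whether these differences varied with genotype was not tested. Wild-type MPP4 replicate 3, with 0 counts of Kit and 32982 CPM of neutrophil markers, is in both fits above. Without it alone, the difference of Angpt1 was -1.81 (SE 0.60, limma adjusted p = 0.178). With the Kit set, which leaves it out, Angpt1 fell by 2.24, Ctla2a fell by 1.75, Hlf fell by 1.47 and Txnip fell by 1.30, 4 of 7, where 5.36% of all genes passed. The B lineage genes Igll1 and Vpreb1 rose in MPP4 in the same contrast, by 3.10 and 2.93.

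LSK populations were compared with CMP and MEP, which were sequenced in other pools. Hlf was higher in LSK populations by 1.18 (SE 0.40, limma adjusted p = 0.0557), and none of the 7 passed, where 7.83% of all genes did. Hlf, the gene nearest to passing, was alone in having an unadjusted p under 0.05. Angpt1 differed by -0.39 (SE 0.40) and Meis1 by 0.03 (SE 0.34). Leaving out wild-type HSC replicate 3 (1.38, limma adjusted p = 0.0138), heterozygous HSC replicate 2 (1.38, limma adjusted p = 0.0120), wild-type MPP2 replicate 2 or 3, wild-type MPP3 replicate 1 or 2, heterozygous MPP2 replicate 1 or heterozygous MEP replicate 2 brought Hlf past the threshold, with differences of 1.23 to 1.38. With 29 libraries Hlf rose by 1.99 (SE 0.26) and Ctla2a by 1.21 (SE 0.22), where 9.14% of all genes passed. With the Kit set they rose by 1.73 and 1.19, where 12.5% did, and edgeR on 36 libraries called the same 2 genes, where 29.6% of its genes passed. All 6 B lineage genes rose in LSK populations in this contrast, by 1.51 to 2.70.

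CMP were compared with MEP within their shared pools. None of the 7 genes passed with limma, edgeR or DESeq2, where 0.0154% of all genes did with limma (Car1, an early erythroid gene). The largest differences were those of Ctla2a (1.30, SE 0.63) and Meis1 (1.09, SE 0.55), both toward CMP, with unadjusted p of 0.0434 and 0.0512 and adjusted p of 1. In pooled counts Ctla2a was 2.24 times as abundant in CMP (95% interval 1.62 to 3.14) and Meis1 2.33 times (1.48 to 3.78). In wild type alone all 3 CMP libraries were above all 3 MEP libraries for Ctla2a, Meis1, Angpt1 and Txnip. The share of all genes separated in this way is not given here, so this only describes the libraries. In heterozygous cells, the ranges of Ctla2a (186 to 292 against 68.4 to 226 CPM) and of Angpt1 (226 to 487 against 160 to 285 CPM) overlapped. Txnip went the other way there, at 250 to 373 CPM in CMP and 194 to 513 CPM in MEP, with a pooled ratio of 0.730 (95% interval 0.537 to 0.991). With the Kit set, which leaves out no CMP or MEP library, Ctla2a rose by 1.30 (SE 0.30, limma adjusted p = 0.0287), 1 of 7, where 0.306% of all genes passed. That difference is the same as with all libraries. Only its SE, which rests on a spread shared by all groups, fell from 0.63, so the call is no added support. Markers of other cells also varied here. Neutrophil markers summed to 194, 11028 and 31918 CPM over the wild-type MEP libraries and 196 to 6258 CPM in wild-type CMP, and B lineage markers reached 2257 CPM in MEP and 39.6 CPM in CMP. Their part in the result was not tested.

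**Figure D4:**
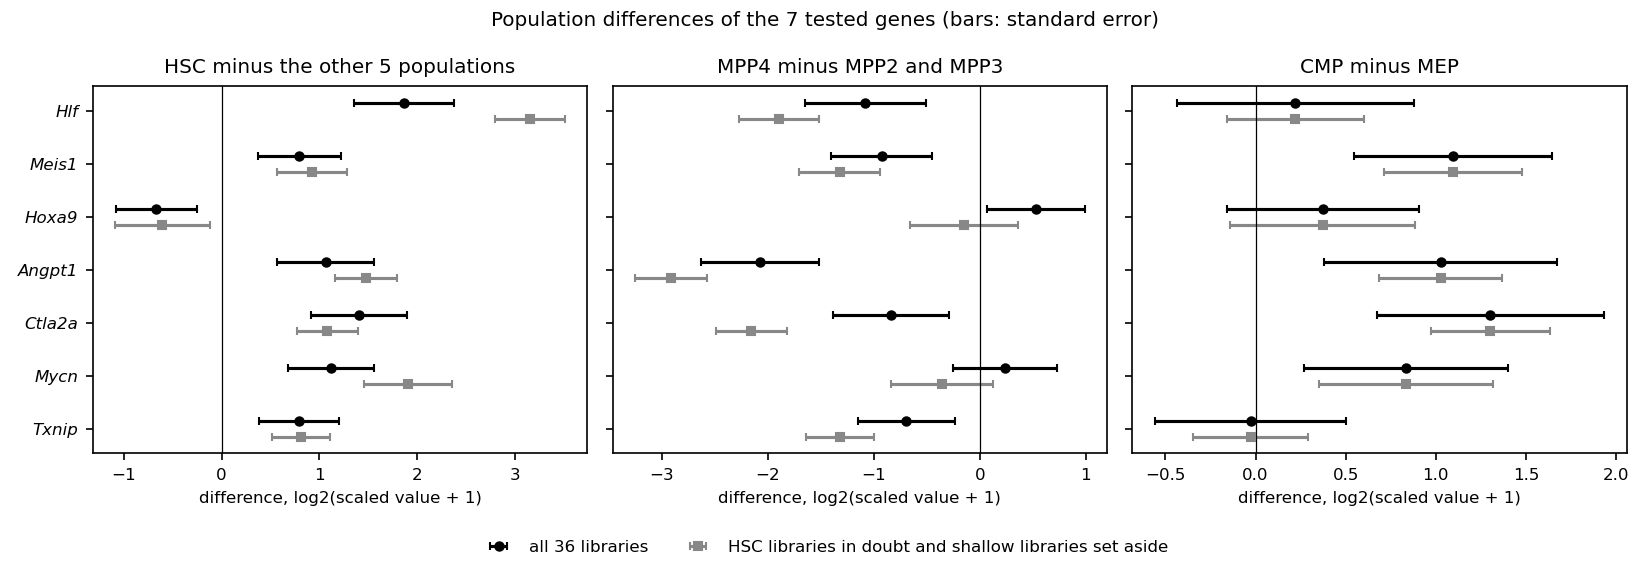
Differences of the 7 tested genes on the log2(scaled value + 1) scale (horizontal axes) in 3 contrasts, with bars for 1 standard error. Black circles use 36 libraries and grey squares 29, after setting aside the 2 HSC libraries in doubt and the other shallow ones. Hlf moves from 1.87 to 3.15 in HSC minus the other 5 populations, and Angpt1 from -2.07 to -2.91 in MPP4.

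Mof -/+ libraries were compared with wild type over all 6 populations. All 7 differences were toward higher levels in heterozygous cells, but none passed with limma, edgeR or DESeq2, where 0.0769% of all genes did with limma. The median difference of the 7 was 0.73, against 0.13 for all genes. Ctla2a differed by 1.27 (SE 0.36, limma adjusted p = 0.190), Meis1 by 1.02 (SE 0.32, limma adjusted p = 0.220) and Angpt1 by 0.99 (SE 0.37, limma adjusted p = 0.308). Of the 7, 4 had an unadjusted p under 0.05. With 29 libraries the differences of Ctla2a and Angpt1 were 0.16 each. Leaving out wild-type MPP3 replicate 3 alone brought Ctla2a past the threshold (1.55, SE 0.32, limma adjusted p = 0.0151).

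Within populations, Ctla2a in MPP3 was the 1 member past the threshold. It was at 0, 0 and 768 CPM in wild type and 919, 1489 and 1956 CPM in heterozygous MPP3, groups that do not overlap. It rose by 4.19 (SE 0.89, limma adjusted p = 0.0146), where 0.492% of all genes passed. The median of all genes in that contrast was itself shifted by 0.68, and the wild-type libraries held 7304, 2764 and 20839 counts against 58757 to 79936 in the heterozygous ones. Without the shallow libraries, wild-type replicate 3 alone was left, assumed to vary like other groups, and the difference was 0.84 (SE 0.66, limma adjusted p = 0.570, 29 libraries, 0.581% of all genes passing). With the Kit set, which also leaves out both shallow libraries, it was 0.84 (limma adjusted p = 0.489), where 1.01% of all genes passed. edgeR gave 1.95 (adjusted p = 0.196), where 0.184% of its genes passed. Leaving out heterozygous MPP3 replicate 2 or 3, or wild-type MPP3 replicate 1 or 2, also ended the call. Leaving out wild-type MPP3 replicate 3, wild-type HSC replicate 3 or heterozygous HSC replicate 2 instead brought Hlf past the limma threshold beside it. Over all populations, leaving out 1 library gave between 0 and 4 calls. With both HSC libraries in doubt set aside, Meis1 also passed in MPP3 (2.49, SE 0.66, limma adjusted p = 0.0230). The share of all genes in that set is not given here.

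In pooled counts, Ctla2a in MPP3 was 2.88 times as abundant in heterozygous cells (95% interval 1.74 to 5.09), Hlf 3.78 times (1.43 to 14.2) and Meis1 3.53 times (0.925 to 30.0). Hlf differed by 3.33 (SE 0.93, limma adjusted p = 0.0634) and Meis1 by 2.49 (SE 0.78, limma adjusted p = 0.0787) there. Beside these values, the neutrophil markers were at 4703 to 19715 CPM in wild-type MPP3, against 69.9 to 1401 CPM. Kit was at 0 in both shallow wild-type libraries, where 1 count equals 137 and 362 CPM. The part of other cells and of depth in the result was not tested. Fewer cells of a type and less RNA per cell cannot be told apart in these libraries.

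None of the 7 passed in HSC (0.0154% of all genes passed), MPP2 (0.385%), MPP4 (0.0%), CMP (0.0%) or MEP (0.0%) with limma, nor with edgeR or DESeq2. An unadjusted p under 0.05 was found for 3 of 7 in MPP2 and for 0 of 7 in the other 4. In HSC the pooled ratio, heterozygous over wild type, was 1.24 for Hlf (95% interval 0.802 to 1.91), 0.852 for Angpt1 (0.531 to 1.35) and 1.18 for Ctla2a (0.751 to 1.85). Without the 2 libraries in doubt it was 0.856 for Hlf (0.555 to 1.32), 0.572 for Angpt1 (0.354 to 0.910) and 0.792 for Ctla2a (0.497 to 1.26), so the direction turned for Hlf and Ctla2a. Of these intervals, only that of Angpt1 without the 2 libraries lies below 1. Wild-type HSC replicate 3, which is 1 of the 2, held no count of Hlf or Angpt1. Setting it aside lowers their ratios by construction, so the lower values are no independent support for a genotype difference. With limma and the same 2 libraries set aside, Angpt1 differed by -0.72 (SE 0.94, limma unadjusted p = 0.447). In MPP2 the limma differences of Ctla2a, Angpt1 and Hoxa9 were 1.92, 1.87 and 1.67, with adjusted p of 0.290, 0.323 and 0.274, beside B lineage sums of 2613 to 3896 CPM in wild type and 572 to 931 CPM in heterozygous cells. In CMP all 7 differences lay between -0.49 and 0.78. A test of whether the genotype difference varied between populations passed for none of the 7 with limma, edgeR or DESeq2, where 0.0154% of all genes passed with limma. Its unadjusted p was 0.00619 for Ctla2a and 0.0371 for Hlf (limma adjusted p = 0.295 and 0.485). Ctla2a passed that test when wild-type MPP3 replicate 3 was left out.

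**Figure D5:**
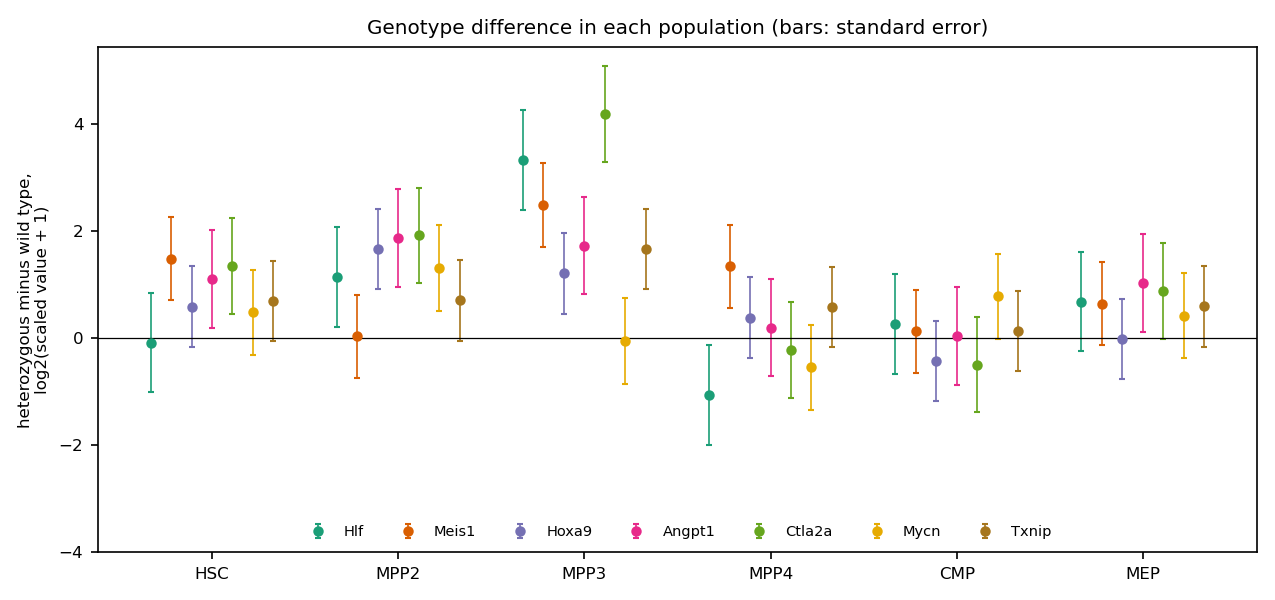
Heterozygous minus wild-type difference of the 7 tested genes on the log2(scaled value + 1) scale (vertical axis) in each population (horizontal axis), with bars for 1 standard error. Ctla2a (4.19), Hlf (3.33) and Meis1 (2.49) stand highest in MPP3, and in CMP all 7 lie between -0.49 and 0.78.

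The heterozygous MPP3 libraries stood apart from MPP2 and MPP4 of the same genotype and pool, a pattern noticed in the values and given without a test. Hlf was at 419 to 575 CPM in MPP3, 25.2 to 104 CPM in MPP2 and 0 to 33.7 CPM in MPP4. The pooled ratio of MPP3 over the other two was 14.1 (95% interval 7.54 to 29.0). Ctla2a, at 6.35 times (4.92 to 8.30), and Angpt1, at 3.97 times (2.76 to 5.80), were also more abundant there. Ctla2b followed, at 0, 300.2 and 335 CPM in MPP3 against 0 to 72.4 CPM in the other heterozygous MPPs, with no count in MPP3 replicate 1 although Ctla2a had 54 there. Mycn went the other way, with 2 counts in MPP3 and 12 in the others, and Hoxa9 (0.781, 0.367 to 1.59) and Txnip (1.34, 0.969 to 1.85) had intervals that include 1. Hlf was as abundant in heterozygous HSC as in heterozygous MPP3 within counting error (1.23, 0.844 to 1.76), whereas Ctla2a was lower in HSC (0.368, 0.259 to 0.510) and Mycn higher (22.5, 5.28 to 201). The ranges of Ctla2a in these 2 groups overlapped, the highest HSC value resting on 3 counts.

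The genes whose 12 group means of log2(scaled value + 1) ran most like those of each member, among 6500 genes, are given as a description. The groups share pools and depths. For Hlf these were Nkx2-3, a homeobox gene (r = 0.95), Nr4a2, an orphan nuclear receptor (r = 0.93), and Dst, a cytoskeletal linker (r = 0.89). For Angpt1 they were Ifitm1 (r = 0.93), the adhesion receptor gene Gpr56 (r = 0.90) and Zfp36l2 (r = 0.89). Ctla2a was close to Gpr56 (r = 0.91) and Rbpms (r = 0.87). Meis1 was closest to Copz1, Mysm1 and Sp110 (r = 0.89, 0.88 and 0.87), and Txnip to Arl14ep, Copz1 and Loxl2 (r = 0.92, 0.91 and 0.88). For Hoxa9 the closest were Gtf2ird1, Snhg6 and Ung (r = 0.96, 0.95 and 0.93), and for Mycn Slc30a7, Sdpr and Xpa (r = 0.86, 0.81 and 0.80). Among the members themselves, r was highest between Meis1 and Txnip (0.86) and between Hlf and Ctla2a (0.85), and lowest between Hlf and Hoxa9 (-0.06).

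Other genes of the same pathways were read from lists. None of 5 Hox and Pbx partners of Meis1, 11 further stem cell transcription factors, 6 surface and anchoring genes, 5 genes of Ctla2a relatives and cathepsins, 8 Myc network genes or 5 Txnip partners passed with limma in HSC against the other populations, where 0.508% of all genes did. The 1 tested PAR bZIP relative of Hlf did not pass either. An unadjusted p under 0.05 was found for 4 of the 6 surface and anchoring genes and for 1 gene each of the transcription factors, the Ctla2a relatives and cathepsins, and the Myc network. These counts stand without a share of all genes at the unadjusted threshold. edgeR called 1 Hox or Pbx partner and 1 transcription factor, where 2.51% of its genes passed. DESeq2 called 1 transcription factor and 1 surface or anchoring gene, its share over all genes not being given here. In LSK populations against CMP and MEP, where 7.83% of all genes passed with limma and 29.6% with edgeR, 2 of 11 transcription factors fell (differences of -2.37 for Gata2 and -1.26 for Gfi1b), both also expressed in erythroid and megakaryocytic progenitors. Of 6 surface and anchoring genes, Ly6a, which encodes the Sca-1 protein used in the gate, was higher by 1.37, and F2r, a thrombin receptor gene, fell by 1.90. Ctss, a cathepsin gene, rose by 1.48, 1 of 5 in its list, and Myc fell by 1.47, 1 of 8. None of 5 Hox and Pbx partners and none of 5 Txnip partners passed with limma, and 0 had an unadjusted p under 0.05, while edgeR called 1 Txnip partner and DESeq2 0. Between genotypes, 1 gene of these lists passed with limma: F2r was higher in heterozygous MPP2 by 4.03 (SE 0.78, limma adjusted p = 0.00688), where 0.385% of all genes passed. All 3 wild-type MPP2 libraries were under 13000 counts, with 1 count equal to 81.0 to 96.8 CPM. The contrast was not run without them.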

How the data were processed

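Each deposited table gives signal values, which are counts per gene divided by 1 size factor per library, as read from the values. Per the labels, libraries were made by CEL-Seq2 from 15 cells, and per the submitters' processing notes BWA 0.6.2-r126 and mm10 were used. The sources used here name no counter or annotation and do not say whether molecular identifiers were used. Within each column, 100% of values were whole multiples of the smallest one within 0.01, and the recovered counts, without spike-ins, were used. The names of the wild-type MEP rows were out of order. Matched by row position, that table correlated with wild-type CMP at r = 0.93 across genes, and by name at 0.34, so position was used.

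CPM are counts, without spike-ins, scaled to a library total of 1000000. Contrasts were fitted with limma 3.58.1 in R 4.3.3 with 1 coefficient for each of 12 groups, after a filter of 1 on the mean of counts scaled to 41227, and with Benjamini-Hochberg adjustment over all genes tested. The design was written for scaled values. The recovered counts allowed edgeR 4.0.16 and DESeq2 1.42.0 as alternatives, beside other scalings, pseudocounts, filters and sets of libraries, of which those that leave out the HSC libraries in doubt or low Kit were added after the data were seen. The fits were tested on simulated data. The members, the related genes and the markers were chosen with earlier results of these data known. Named besides the members were the 3 genes most correlated with each member of at least 50 counts over the 12 group means, and genes of the related lists that passed. A few genes and 1 related list are not reported here.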

Additional observations from a re-analysis of the deposited data

How the results depend on the processing

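Of the 7 tested genes, the test of differences between populations called 2, and DESeq2 called 4, a pseudocount of 0.5 called 1, a minimum level of 5 called 0, no minimum 0, wild-type libraries alone 0, the set without libraries under 13000 counts 4, heterozygous libraries alone 3, and the set of 29 libraries and the set without low Kit 6 each. HSC against the others (0 called) gave 1 with TMM scaling, a pseudocount of 5 or no libraries under 13000 counts, 2 with edgeR under TMM or RLE size factors or without the 2 HSC libraries in doubt, 3 with DESeq2 or the 29 libraries, and 5 without low Kit. LSK populations against CMP and MEP (0 called) gave 1 with TMM scaling, a pseudocount of 5 or without the HSC libraries in doubt, and 2 with edgeR, DESeq2, no libraries under 13000 counts, the 29 libraries or no low Kit. CMP against MEP (0 called) gave 1 without low Kit. MPP4 (0 called) gave 1 with TMM scaling, edgeR or without the HSC libraries in doubt, 2 with DESeq2 or heterozygous libraries alone, 4 without libraries under 13000 counts or low Kit, and 5 with 29 libraries. Genotype within populations (1 called) gave 3 with TMM scaling or without the HSC libraries in doubt, and 0 with edgeR, DESeq2, no libraries under 13000 counts, the 29 libraries or no low Kit. TMM scaling shifted the median of all genes between genotypes in MPP3 from 0.68 to 1.06. The share of all genes called moved with the setting too, so these counts of members do not compare on their own. Between populations it was 4.14% in the main fit, 12.7% with 29 libraries and 22.5% without low Kit. For LSK populations it was 7.83% with limma and 29.6% with edgeR. Shares for several other settings are not given here.

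Signs of single genes changed in LSK populations against CMP and MEP, where Meis1 was at -0.26 with TMM scaling, -0.088 with a pseudocount of 0.5 and -0.45 in wild-type libraries alone, where Ctla2a was at -0.31. Hoxa9 was at 0.028 in heterozygous libraries alone, where Txnip was at 0.11. Without libraries under 13000 counts Angpt1, Mycn and Txnip were at 0.010, 0.096 and 0.145, with 29 libraries at 0.22, 0.21 and 0.22, and without low Kit at 0.078, 0.11 and 0.064. DESeq2 gave 0.20 for Mycn and 0.14 for Txnip, and edgeR with RLE 0.13 for Txnip. In CMP against MEP, Txnip was at 0.20 in wild-type libraries alone. In MPP4 against MPP2 and MPP3, Hlf and Ctla2a were at 0.56 and 0.80 in wild-type libraries alone. In that contrast Hoxa9 and Mycn were at -0.15 and -0.35 without libraries under 13000 counts and with 29 libraries, and at -0.0013 and -0.35 in heterozygous libraries alone. The causes were not tested.

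Leaving out each of the 36 libraries gave 1 to 3 calls between populations, 0 to 1 in HSC, LSK populations, MPP4, the genotype average and the interaction, 0 to 0 in CMP against MEP, and 0 to 4 for genotype within populations. Meis1 in LSK populations ranged from -0.072 to 0.17, and in CMP against MEP Hlf ranged from -0.057 to 0.51 and Txnip from -0.24 to 0.085. Mycn in MPP4 ranged from -0.31 to 0.51. The deposited scale, which populations do not share, served genotype contrasts only, and genotype in MPP2 was not run without the shallow libraries. No paired analysis was possible because the replicate numbers used here only follow column order, and no pair of groups shares a library number in the deposited column names.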
